A study of Mus musculus with 40 samples.

Results

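Genes of ribosome biogenesis were followed through 28 RNA-seq libraries of mouse follicular B cells, the recirculating B cells of spleen and lymph node. The members are 43 named genes, chosen by their known part in making ribosomes and found by gene symbol in each library's table, after suffixes for overlapping gene models were removed. Of these, 42 had a row among the 24732 rows of each table, and all 42 passed the filter on low values in every comparison. Noc2l was not analysed here.

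Ribosomes are assembled in the nucleolus. RNA polymerase I makes a long precursor of the ribosomal RNAs there, small nucleolar RNA-protein particles (snoRNPs) modify and help to cut it, and a large set of assembly factors folds it together with ribosomal proteins into the small and the large subunit. A resting lymphocyte keeps this machinery low and raises it before it grows and divides. The transcription factor Myc is known to act on many of these genes, and on Odc1, the first enzyme of polyamine synthesis.

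All mice were C57BL/6 and carried the MD4 transgene, which gives their B cells a receptor that binds hen egg lysozyme (HEL). Deletion of Ikzf1, the gene of the zinc finger protein Ikaros, used Cd23-cre, which is active from late stages of B cell development on. HEL-exposed Ikaros-deleted cells were Cd23-cre Ikzf1(fl/fl) (5 libraries), and HEL-exposed control cells were Ikzf1(fl/fl) without Cre (5 libraries). Both were sorted 1 day after an intravenous dose of HEL. Anergic cells (3 libraries) came from MD4 mice with the ML5 transgene as well, which makes soluble HEL, so that their B cells meet the antigen continuously. Of the anergic libraries 1 was Ikzf1(fl/fl), 1 was Ikzf1(fl/+) and 1 was Cd23-Cre Ikzf1(fl/+). Their naive controls (3 libraries) were Ikzf1(fl/+) in 2 libraries and Cd23-cre Ikzf1(fl/+) in 1 library. CpG-stimulated Ikaros-deleted cells were Cd23-cre Ikzf1(fl/-) (4 libraries), and CpG-stimulated heterozygous cells were Cd23-cre Ikzf1(fl/+) (4 libraries). CpG, a DNA ligand of Tlr9, was given in culture for 1 day. A further naive set held Cd23-cre Ikzf1(fl/-) (2 libraries) and Cd23-cre Ikzf1(fl/+) (2 libraries). The control of the HEL comparison thus carries no Cre, while the heterozygous controls carry Cre and only 1 intact Ikzf1 allele.

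The library numbers begin with 57 for the HEL, anergic and first naive groups, with 49 for the CpG groups and with 36 for the second naive groups. These beginnings are called library series, and tests stayed within a series. Depth was 12126702 to 25424364 recovered reads per library. Ikzf1 averaged 67.7 ± 7.2 TPM in HEL-exposed Ikaros-deleted cells and 215 ± 26.5 TPM in their controls (SD, n = 5 each), 36.6 ± 3.70 TPM in CpG-stimulated Ikaros-deleted cells and 149 ± 16.4 TPM in heterozygous cells (SD, n = 4 each), and 61.3 ± 5.68 TPM in naive Ikaros-deleted cells and 128 ± 10.9 TPM in naive heterozygous cells (SD, n = 2 each), with no overlap in any pair. The 8 B cell markers were all present at 1 TPM or more on average in every group. TPM is a share of all transcripts, per transcript length, and in bulk samples fewer cells of a type and less RNA per cell cannot be told apart.

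Some promoters of the members carry CACGTG, the E-box letters that Myc family proteins are known to bind, and these are shown because the members moved together in several comparisons. Of the 42 measured genes 35 had a promoter window in the RefSeq table for GRCm38.p6 (250 bases before to 50 bases after the start site). CACGTG, which reads the same on both strands, stood in the windows of 8 of these 35 genes (22.86%), against 8.09% of all 27025 genes in the table. The 30 bases around each match, fewer where the window ends, are printed in the direction of the gene, with the motif in capitals.
Nop2: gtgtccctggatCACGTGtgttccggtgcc
Ltv1: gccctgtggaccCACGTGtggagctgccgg
Utp20: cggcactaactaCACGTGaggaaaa
Pes1: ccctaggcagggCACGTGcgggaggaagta
Mybbp1a: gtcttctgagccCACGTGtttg
Tsr1: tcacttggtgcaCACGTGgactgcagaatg
Utp18: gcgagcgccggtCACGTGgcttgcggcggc
Wdr43: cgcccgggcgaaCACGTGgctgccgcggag
On GRCm38.p6 these stretches lie at chr6:125131811-125131840 on the plus strand (Nop2), chr10:13193092-13193121 on the minus strand (Ltv1), chr10:88826765-88826789 on the minus strand (Utp20) and chr11:3963965-3963994 on the plus strand (Pes1). The others lie at chr11:72441355-72441376 on the plus strand (Mybbp1a), chr11:74898092-74898121 on the plus strand (Tsr1), chr11:93885769-93885798 on the minus strand (Utp18) and chr17:71616220-71616249 on the plus strand (Wdr43). Counted from the start site, the first base of the motif was at -60 in Nop2 and -20 in Utp18, and the other 6 matches began after the start site, between 3 and 41. Before the start site alone, CACGTG was found in 2 of the 35 members (5.71%) and 6.86% of all genes, so the members' excess over all genes was not seen there. Among 99 other ribosome biogenesis genes with a window, it was in 19.19% of whole windows and 12.12% before the start site. TGGGAA, the core letters of Ikaros sites, read on both strands, was in 31.43% of the members' windows and 28.31% of all genes' windows. A match of letters is a description, not a site.

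**Figure D1:**
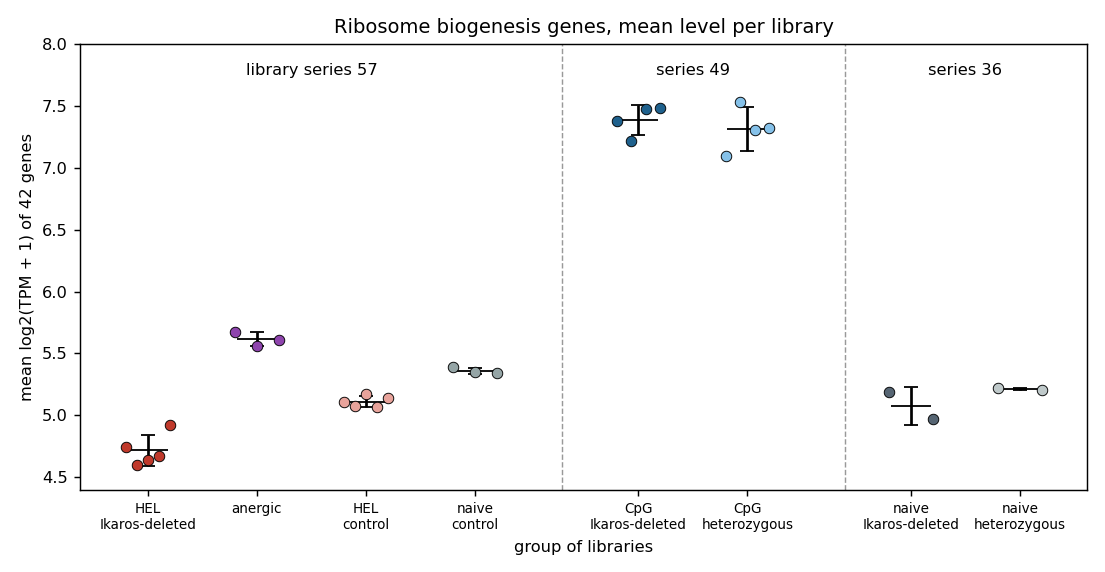
Mean log2(TPM + 1) of the 42 ribosome biogenesis genes in each library (points), by group, with the group mean and SD (bars). The HEL-exposed Ikaros-deleted libraries sit between 4.60 and 4.93, below the HEL-exposed control libraries, and the CpG-stimulated libraries sit between 7.10 and 7.53.

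The HEL comparison asks whether levels after antigen exposure in the animal differ without Ikaros. Its library series held no unexposed Ikaros-deleted cells, so a change in the response to antigen was not tested. Ribosome biogenesis genes were lower in HEL-exposed B cells without Ikaros than in HEL-exposed controls, across almost every step of the pathway. Of the 42 genes 33 fell and 1 rose, while among all 10258 genes tested 24.1% fell and 12.9% rose. The members' median log2 difference was -0.42, against -0.08 over all genes tested. Averaged over the members, log2(TPM + 1) was 4.75, 4.60, 4.64, 4.67 and 4.93 in the Ikaros-deleted libraries, against 5.11, 5.07, 5.17, 5.07 and 5.14 in the control libraries. The highest Ikaros-deleted library was below the lowest control library.

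Both polyamine enzymes fell, and Srm had the largest change of the 42 members. Srm, spermidine synthase, had 20.9, 18.7, 17.7, 19.6 and 29.7 TPM in HEL-exposed Ikaros-deleted libraries, against 46.5, 41.1, 53.7, 51.9 and 49.1 TPM in control libraries. The groups did not overlap, and the log2 difference was -1.16 ± 0.12 (standard error, limma, adjusted p = 8.97e-06), a 2.24-fold lower level. Odc1, ornithine decarboxylase, had 15.1, 14.2, 20.9, 15.3 and 23.4 TPM without Ikaros, against 30.6, 29.4, 38.9, 30.3 and 25.2 TPM in controls. It fell by 0.78 ± 0.14 on the log2 scale, again without overlap (limma, adjusted p = 0.000802). Of 10 other polyamine genes tested, 3 were lower and 1 was higher, while 24.1% of all 10258 genes were lower and 12.9% higher.

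Subunits of RNA polymerase I split. Polr1a, the largest subunit, averaged 13.7 ± 2.44 TPM in Ikaros-deleted libraries and 18.7 ± 1.5 TPM in control libraries (SD, n = 5 each) and fell by 0.44 ± 0.10 (limma, adjusted p = 0.00457), although the highest deleted library, at 17.6 TPM, was above the lowest control library, at 16.4 TPM. Polr1b, the second largest subunit, also fell, with a log2 difference of -0.43. Polr1c, a subunit that RNA polymerases I and III share, averaged 145 TPM without Ikaros and 142 TPM in controls, and Polr1e, a smaller subunit, averaged 8.99 and 9.81 TPM in the same order. Neither passed the test.

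All 3 members that are core proteins of the box C/D snoRNPs, which guide methylation of ribosomal RNA, fell. Nop58 had 23.4, 19.4, 19.6, 22.04 and 23.8 TPM in Ikaros-deleted libraries, against 35.3, 31.7, 36.9, 33.4 and 39.3 TPM in control libraries. Its lowest control library was above every deleted library, and the log2 difference was -0.68 ± 0.08 (limma, adjusted p = 1.91e-05). Nop56 and Fbl, the methyltransferase of the particle, had log2 differences of -0.56 and -0.33. Of the box H/ACA snoRNP proteins, which belong to the particles that turn uridine into pseudouridine, 3 of 4 fell. Gar1 had 29.7, 27.7, 24.3, 33.9 and 38.3 TPM without Ikaros, against 47.8, 45.7, 50.9, 50.6 and 49.4 TPM in controls, with no overlap and a log2 difference of -0.67 ± 0.10 (limma, adjusted p = 0.000197). Nop10 and Nhp2 had log2 differences of -0.44 and -0.14, and Dkc1, the pseudouridine synthase itself, averaged 21.9 and 24.2 TPM in the same order and did not pass.

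Among nucleolar factors the most abundant member went the other way. Gnl3, nucleostemin, a nucleolar GTP-binding protein, had 7.08, 6.03, 7.21, 7.69 and 8.73 TPM in Ikaros-deleted libraries, against 12.6, 13.2, 12.6, 11.7 and 13.5 TPM in controls. It fell by 0.72 ± 0.08 (limma, adjusted p = 2.56e-05) without overlap. Nolc1, a chaperone of snoRNPs, Mybbp1a and the RNA helicase Ddx21 also fell, with log2 differences of -0.60, -0.44 and -0.28. Npm1, nucleophosmin, a histone and ribosome chaperone, had 232, 219, 232, 186 and 231 TPM without Ikaros, against 180, 195, 189, 174 and 187 TPM in controls. It was the 1 member that rose, by 0.25 ± 0.07 (limma, adjusted p = 0.0102), and 1 deleted library, at 186 TPM, lay within the control range. Ncl, nucleolin, averaged 86.7 and 84.8 TPM and Tcof1, treacle, 125 and 141 TPM in deleted and control libraries, and neither passed the test.

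Of 13 factors of the small subunit 11 fell. Rrp12, a factor that in yeast serves processing and export of both subunits, had 7.74, 6.89, 6.75, 7.29 and 9.97 TPM in Ikaros-deleted libraries, against 12.98, 12.7, 16.6, 13.7 and 13.8 TPM in controls, a log2 difference of -0.79 ± 0.10 (limma, adjusted p = 6.28e-05). Rrp9, a protein of the U3 snoRNP, had the smallest adjusted p of all members, with 29.3 ± 2.58 TPM in deleted libraries and 46.9 ± 1.67 TPM in control libraries (SD, n = 5 each), a log2 difference of -0.66 ± 0.06 (limma, adjusted p = 4.64e-06). Neither gene overlapped between groups. The other 9 that fell, Wdr43, Tsr1, Ltv1, Heatr1, Utp20, Utp18, Nop14, Bysl and Utp15, had log2 differences from -0.53 (Wdr43) to -0.32 (Utp15). Nob1, the nuclease that makes the end of the small subunit RNA, averaged 47.4 TPM without Ikaros and 48.0 TPM in controls, and Noc4l averaged 32.6 and 37.4 TPM. These 2 did not pass.

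Of 9 factors of the large subunit 8 fell. Rrs1, which in yeast helps to bring 5S RNA into the large subunit, averaged 19.98 ± 1.66 TPM in Ikaros-deleted libraries and 31.2 ± 0.985 TPM in control libraries (SD, n = 5 each), a log2 difference of -0.62 ± 0.06 without overlap (limma, adjusted p = 7.78e-06). Pes1, Bop1 and Wdr12, which form the PeBoW complex, fell by 0.27, 0.34 and 0.28. Nop2, Ebna1bp2, Ddx18 and Rrp1b had log2 differences of -0.46, -0.43, -0.41 and -0.30, and Nop16 averaged 29.0 TPM without Ikaros and 31.1 TPM in controls and did not pass.

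**Figure D2:**
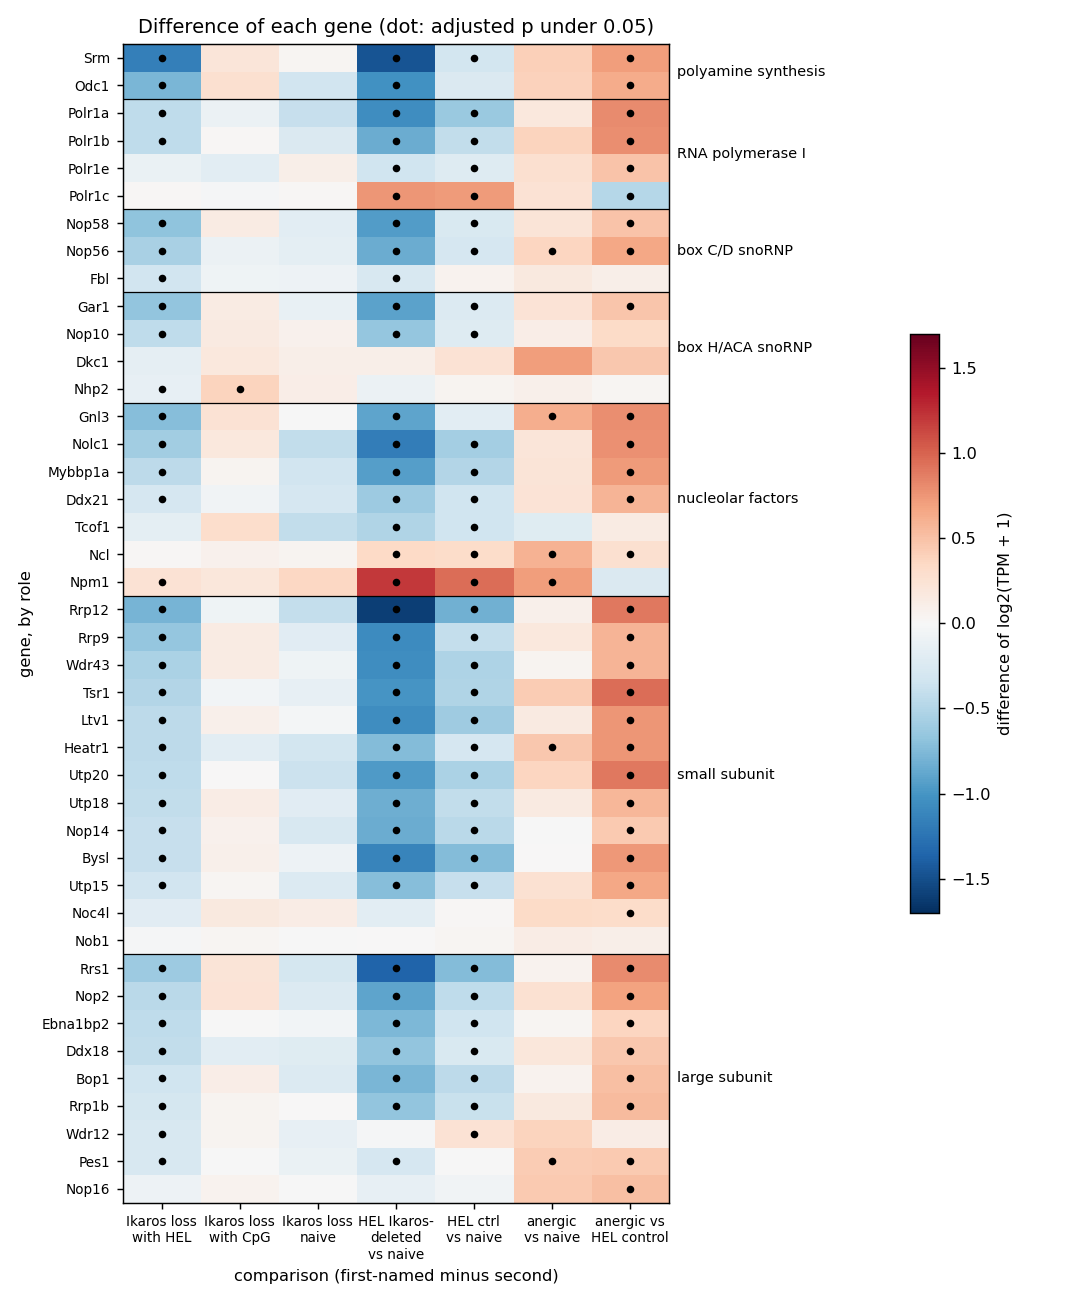
Difference of log2(TPM + 1) for each gene (rows, by role) in 7 comparisons (columns), first-named group minus second, with a dot where the limma adjusted p was under 0.05. With HEL, 33 genes are lower without Ikaros, while the CpG and naive columns hold 1 and 0 dots.

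Groups did not overlap for 23 of the 42 members, against 25.8% of all genes tested. Of the 33 lower and 1 higher calls, 30 held in all 17 alternatives, and Ddx21, Nhp2, Rrp1b and Utp15 lost theirs in 3 to 11 of them. With TPM rescaled by median ratios, 32 members fell, while among all genes 15.7% did. The Ikaros-deleted library 5 had the highest value among the 5 deleted libraries for 35 of the 42 members. Without it 34 members fell, while 2538 of all 10321 genes did. Leaving out any other library gave 29 to 33 lower members, while 2020 to 2414 of all genes fell. Of the 32 members with no overlapping gene model, 25 fell and 1 rose. The 10 members with such a model, Wdr12, Nop56, Polr1e, Ebna1bp2, Nhp2, Tsr1, Gnl3, Bop1, Bysl and Dkc1, may hold reads of a neighbour.

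Markers of other cells moved with the same contrast. The summed level of 6 monocyte and macrophage markers was 28.2 to 40.4 TPM in Ikaros-deleted libraries and 10.04 to 15.7 TPM in controls, that of 6 dendritic cell markers was 16.5 to 23.8 TPM against 4.35 to 7.58 TPM, and that of the 8 B cell markers was 11967 to 13457 TPM against 14332 to 15371 TPM, deleted libraries first. The sum of 5 neutrophil markers was 0.114 to 0.510 TPM in deleted libraries and 0 to 0.370 TPM in controls, and that of 5 T cell markers was 0.428 to 0.630 TPM in deleted libraries and 0.538 to 1.05 TPM in controls, with no marker of either list at 1 TPM or more on average. The sum of 6 natural killer and cytotoxic cell markers was 4.77 to 8.95 TPM in deleted libraries and 9.81 to 12.6 TPM in controls. Only 1 of these 6 was at 1 TPM or more on average in each group. The 5 plasma cell markers summed to 164 to 206 TPM in deleted libraries and 130 to 152 TPM in controls, without overlap. Their part in the result was not tested. Each group held 3 female and 2 male libraries by the Y-linked transcript Ddx3y alone, with male above 1 TPM. With a term for sex 33 members fell, while 24.0% of all genes did.

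Other genes of the same pathway, from a list of 121, gave a like picture with HEL. Without Ikaros 67 fell and 4 rose, with a median log2 difference of -0.23, while 24.1% of all 10258 genes fell and 12.9% rose. Ppan, a large subunit factor, averaged 26.3 TPM in Ikaros-deleted and 46.8 TPM in control libraries, a log2 difference of -0.81 ± 0.07 (limma, adjusted p = 2.00e-06). Rcl1, a small subunit factor, fell by 0.67 and Tma16 by 0.66. Of those that rose, Utp14a, Polr1d and Imp3 had log2 differences of 0.27, 0.20 and 0.16. Myc itself had 22.7, 21.9, 28.3, 30.8 and 39.1 TPM in Ikaros-deleted libraries, against 54.7, 42.1, 62.5, 46.2 and 42.9 TPM in controls. The groups did not overlap, and Myc was lower by 0.79 ± 0.15 on the log2 scale (limma, adjusted p = 0.00116). Of 9 genes of the Myc network that were tested, Myc included, 3 fell and 1 rose, against 24.1% and 12.9% of all genes. All 8 members with CACGTG in the promoter window fell, as did 20 of the 27 without it, with median log2 differences of -0.45 and -0.40.

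In CpG-stimulated cells the loss of Ikaros left these genes near the level of heterozygous cells, with 1 exception among 42. Nhp2, a protein of the box H/ACA snoRNP, had 1053, 1028, 1103 and 1076 TPM in CpG-stimulated Ikaros-deleted libraries, against 788, 850, 863 and 788 TPM in heterozygous libraries. The groups did not overlap, and it rose by 0.37 ± 0.06 on the log2 scale (limma, adjusted p = 0.00473). No member fell, and 4 had an unadjusted p under 0.05 in limma, while 3153 of all 10386 genes did. Among all 10386 genes tested 9.14% rose and 5.8% fell, so the members' share was below that of all genes. The median difference of the members was 0.07.

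Of the 3 next most abundant members, Srm had 907, 890, 994 and 944 TPM in CpG-stimulated Ikaros-deleted libraries, against 853, 805, 835 and 744 TPM in heterozygous libraries, a log2 difference of 0.21 ± 0.07 that did not pass (limma, adjusted p = 0.0759), although the groups did not overlap. Npm1 had 835, 622, 795 and 855 TPM without Ikaros, against 489, 957, 629 and 712 TPM in heterozygous libraries, and Mybbp1a had 658, 622, 728 and 702 TPM, against 602, 728, 666 and 634 TPM. Both ranges overlapped widely. Heterozygous library 1 was the lowest of its group for 35 of 42 members and heterozygous library 2 the highest for 34. Without library 2 of that group Nhp2 and Odc1 rose, while 838 of all 10509 genes did.

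The CpG libraries fall into a first and a second run of numbers, with 2 libraries of each genotype in each. Within the first run no member passed in limma, while 2.07% of all 10438 genes rose and 0.537% fell. Within the second run 10.9% of all 10480 genes rose and 11.9% fell, and of the members 11 rose and 0 fell: Dkc1, Gar1, Gnl3, Nhp2, Nolc1, Nop16, Nop2, Nop58, Rrs1, Srm and Wdr12. With a term for the run, Nhp2 and Odc1 rose, while 12.3% of all genes did. The rise of Nhp2 was lost in the first run alone. Of the other 121 ribosome biogenesis genes 7 rose and 0 fell with CpG, while 9.14% of all 10386 genes rose and 5.8% fell. The 7 included Naf1, Ppan and Imp3, with log2 differences of 0.39, 0.30 and 0.27. Myc had 326, 279, 301 and 256 TPM in CpG-stimulated Ikaros-deleted libraries, against 185, 217, 233 and 189 TPM in heterozygous libraries, a rise of 0.49 ± 0.10 (limma, adjusted p = 0.0129). Of 18 cell cycle genes 4 rose and none fell, and their summed level was 4925 to 5380 TPM without Ikaros and 3304 to 4792 TPM in heterozygous libraries. The sum of the 6 dendritic cell markers was 29.1 to 38.4 TPM without Ikaros and 12.4 to 27.7 TPM in heterozygous libraries, that of the 5 neutrophil markers 0 to 14.0 TPM and 0 to 100.4 TPM in the same order. The natural killer and cytotoxic cell markers summed to 1.56 to 2.03 TPM without Ikaros and 2.91 to 5.84 TPM in heterozygous libraries, without overlap, and the B cell markers to 1993 to 2776 TPM and 2628 to 3618 TPM in the same order. Only 1 of 6 dendritic and 1 of 6 natural killer cell markers was at 1 TPM or more on average in each group. Their part in the result was not tested.

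**Figure D3:**
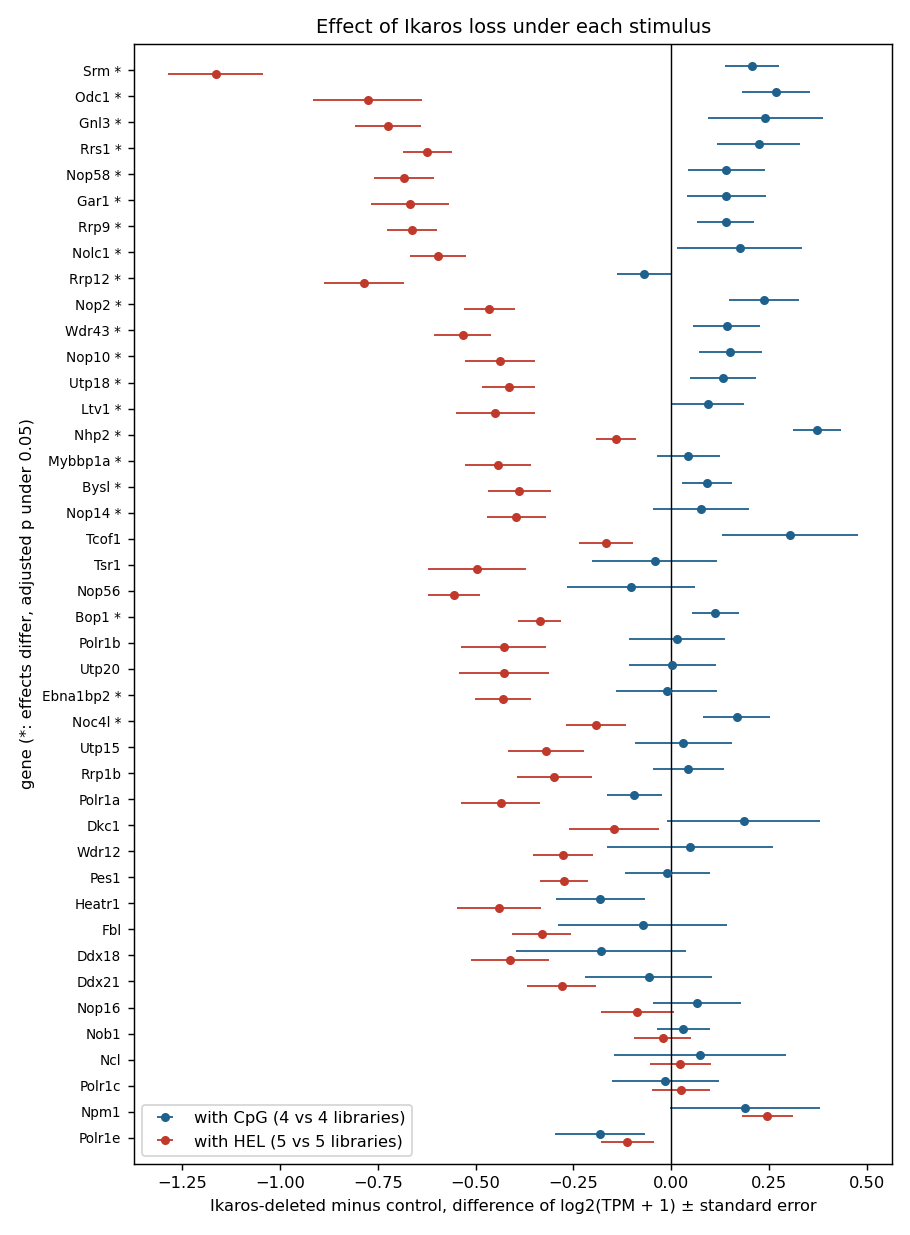
Log2 difference between Ikaros-deleted and control cells for each gene (points, with standard errors), under CpG and under HEL, ordered by the gap between them. For Srm the points lie at 0.21 with CpG and -1.16 with HEL, and an asterisk marks the 21 genes whose effects differed in limma.

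The 2 effects of Ikaros loss were compared directly. For 21 of 42 members the difference was positive, CpG minus HEL, and for none was it negative. Among all 11050 genes tested 15.2% were positive and 7.19% negative. Of the polyamine enzymes both differed, Srm by 1.37 ± 0.16 (limma, adjusted p = 1.14e-05) and Odc1 by 1.04 ± 0.19 (limma, adjusted p = 0.000802). Of small subunit factors 8 of 13 differed, with Rrp9 at 0.80 ± 0.09 (limma, adjusted p = 1.15e-05), and of large subunit factors 4 of 9, with Rrs1 at 0.85 ± 0.12 (limma, adjusted p = 7.64e-05). Gar1, Nop10 and Nhp2 of the box H/ACA particle, Nop58 of the box C/D particle and the nucleolar factors Gnl3, Nolc1 and Mybbp1a also differed. No subunit of RNA polymerase I did, with differences from -0.07 to 0.44. Myc differed by 1.29 ± 0.21 (limma, adjusted p = 0.000305). The 2 designs differ in more than the stimulus: CpG cells were cultured and compared fl/- with fl/+ cells that both carry Cre, whereas HEL cells came from the animal and compared fl/fl cells with and without Cre. The CpG libraries were all male by the Y-linked transcript Ddx3y, whereas each HEL group held 3 female and 2 male libraries. The library series differed as well. These cannot be told apart.

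In naive cells no member passed the test for loss of Ikaros. Among all 10053 genes tested 0.0199% were called in either direction by limma, and 896 genes, but no member, had an unadjusted p under 0.05. Voom on recovered reads called 58 genes and no member. A term for sex called 240 genes, 104 higher and 136 lower, or 2.39% of those tested, and no member, and median-ratio scaling called 17 genes. The members' median log2 difference was -0.14, against -0.12 over all genes. Of the 4 most abundant members, Nhp2 had 186 and 206 TPM in naive Ikaros-deleted libraries, against 185 and 178 TPM in naive heterozygous libraries. Mybbp1a had 129.8 and 87.1 TPM, against 137 and 129 TPM. Nop56 had 89.9 and 86.0 TPM, against 93.8 and 103 TPM, and Polr1c had 98.4 and 85.4 TPM, against 89.1 and 91.0 TPM, deleted libraries first each time. Naive Ikaros-deleted library 2 was below library 1 for 29 of 42 members. Myc had 47.6 and 48.7 TPM, against 46.9 and 46.1 TPM. The test of CpG minus naive called no member, with 2.49% of all genes called in either direction. Without adjustment 8 members had a p under 0.05 in limma, while 1894 of all 10688 genes did. With 2 libraries per group the design leaves few degrees of freedom. The sum of 5 neutrophil markers was 16.7 to 54.4 TPM in naive Ikaros-deleted and 26.1 to 59.7 TPM in naive heterozygous libraries. The 6 dendritic cell markers summed to 28.1 to 42.7 TPM in naive Ikaros-deleted and 9.02 to 14.8 TPM in naive heterozygous libraries, and the 18 cell cycle genes to 246 to 292 TPM and 336 to 444 TPM in the same order, both without overlap. Of the 6 dendritic cell markers 3 were at 1 TPM or more on average without Ikaros and 1 in heterozygous cells. Their part in these values was not tested.

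Anergic cells had somewhat higher levels than naive cells. The mean log2(TPM + 1) of the members was 5.67, 5.56 and 5.61 in anergic libraries, against 5.39, 5.35 and 5.34 in naive libraries, with no overlap. Of the 42 genes 6 rose and none fell, while 4.48% of all 10519 genes rose and 2.89% fell. The median difference was 0.23, and 21 members had an unadjusted p under 0.05 in limma, while 2405 of all 10519 genes did. The 6 were the nucleolar factors Npm1, Ncl and Gnl3, the box C/D protein Nop56, the small subunit factor Heatr1 and the PeBoW protein Pes1.

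Ncl had 123, 91.8 and 96.6 TPM in anergic libraries, against 70.4, 67.5 and 65.7 TPM in naive libraries, a rise of 0.59 ± 0.12 (limma, adjusted p = 0.0237). Npm1 had 173, 118 and 184 TPM in anergic libraries, against 103, 87.5 and 95.02 TPM in naive libraries (log2 difference 0.71 ± 0.17, limma, adjusted p = 0.0401). Gnl3 had 23.2, 18.5 and 27.2 TPM, against 15.8, 15.2 and 12.7 TPM (0.62 ± 0.15, limma, adjusted p = 0.0496). In all 3 every anergic library was above every naive library. Heatr1 had 41.1, 36.13 and 38.1 TPM in anergic libraries, against 28.8, 27.8 and 26.2 TPM in naive libraries (0.46 ± 0.10, limma, adjusted p = 0.0243). Pes1 had 126, 108 and 112 TPM, against 83.7, 88.7 and 82.2 TPM (0.43 ± 0.09, limma, adjusted p = 0.0300), and Nop56 had 117, 110 and 124 TPM, against 92.3, 86.0 and 92.9 TPM (0.37 ± 0.09, limma, adjusted p = 0.0458). These groups were also apart.

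None of the 6 calls held in every alternative. Without anergic library 1, or without any 1 naive library, no member passed, while 323 to 394 of all genes did. With the 2 against 2 libraries that carry no Cre no member passed either, while 572 of all 10613 genes did. After median-ratio scaling 2 passed, both higher, while 3.88% of all genes were higher. Myc had 77.8, 88.5 and 82.2 TPM in anergic libraries, against 39.96, 33.4 and 48.2 TPM in naive libraries, a rise of 1.03 ± 0.14 (limma, adjusted p = 0.00393). Of the other 121 genes of the pathway 2 rose and 1 fell, while 4.48% of all 10519 genes rose and 2.89% fell. Ppan and Nol12 rose and Exosc5 fell, with log2 differences of 0.43, 0.42 and -0.37. The sum of the 6 dendritic cell markers was 6.18 to 7.51 TPM in anergic libraries and 10.9 to 22.01 TPM in naive libraries. That of the 5 plasma cell markers was 196 to 219 TPM in anergic libraries and 151 to 165 TPM in naive libraries, and neither sum overlapped. Their part in the result was not tested.

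One day of HEL in the animal went with lower levels than in naive cells, and the loss of Ikaros with lower levels still. These comparisons share libraries with each other and with those above, so they are set side by side only. HEL-exposed Ikaros-deleted cells had 33 members lower and 3 higher than naive cells, while among all 10538 genes 48.8% were lower and 15.4% higher. Here genotype and exposure differ together. HEL-exposed control cells had 29 lower and 4 higher than naive cells, while among all 10448 genes 38.1% were lower and 9.92% higher. The members' median difference was -0.81 for deleted cells and -0.32 for control cells, against -0.23 and -0.16 over all genes.

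The scale mattered for this pair. Median-ratio scaling moved the median of all genes to -0.0026 for deleted cells and -0.0060 for control cells, each against naive cells. With it 18 members were lower and 8 higher in control cells, while 20.5% of all genes were lower and 19.7% higher. The members' median was then -0.57 for deleted cells and -0.15 for control cells. In deleted cells 30 members were lower, while 27.2% of all genes were. The naive libraries were all male by the Y-linked transcript Ddx3y, while each HEL-exposed group held 3 female and 2 male libraries. Male libraries alone gave 32 lower and 3 higher members in deleted cells, while 36.6% of all 10636 genes were lower and 11.6% higher. In control cells male libraries gave 21 lower and 3 higher members, while 28.5% of all 10539 genes were lower and 6.39% higher.

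Marker sums also differed from naive cells. The dendritic cell markers summed to 16.5 to 23.8 TPM in HEL-exposed Ikaros-deleted and 4.35 to 7.58 TPM in HEL-exposed control libraries, against 10.9 to 22.01 TPM in naive libraries. The natural killer and cytotoxic cell markers summed to 4.77 to 8.95 TPM and 9.81 to 12.6 TPM, against 13.4 to 18.2 TPM, and the monocyte and macrophage markers to 28.2 to 40.4 TPM and 10.04 to 15.7 TPM, against 11.3 to 17.9 TPM, in the same order of groups. For the B cell markers these values were 11967 to 13457 TPM and 14332 to 15371 TPM, against 14415 to 17342 TPM, and for the plasma cell markers 164 to 206 TPM and 130 to 152 TPM, against 151 to 165 TPM. Deleted cells were apart from naive cells in the natural killer, macrophage and B cell sums, and control cells in the dendritic and natural killer sums. Only 1 of the 6 natural killer cell markers was at 1 TPM or more on average in each of these groups. The part of these markers in the result was not tested.

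The largest falls were in Rrp12, which had 7.74, 6.89, 6.75, 7.29 and 9.97 TPM in HEL-exposed Ikaros-deleted cells and 12.98, 12.7, 16.6, 13.7 and 13.8 TPM in HEL-exposed control cells, against 24.7, 26.5 and 24.5 TPM in naive cells. No 2 of these groups overlapped. The log2 differences from naive cells were -1.60 ± 0.11 without Ikaros (limma, adjusted p = 1.11e-06) and -0.81 ± 0.09 with it (limma, adjusted p = 7.48e-05). Rrs1 had 20.4, 18.8, 17.8, 20.8 and 22.1 TPM without Ikaros and 29.9, 30.7, 31.7, 31.5 and 32.4 TPM with it, against 54.1, 53.5 and 51.3 TPM in naive cells, differences of -1.37 ± 0.08 (limma, adjusted p = 3.74e-07) and -0.74 ± 0.06 (limma, adjusted p = 1.04e-05). Srm differed from naive cells by -1.47 ± 0.14 without Ikaros and by -0.31 ± 0.09 with it, the second of which did not pass after median-ratio scaling. Rrp9 had 26.6, 28.3, 28.3, 30.03 and 33.4 TPM without Ikaros and 47.3, 45.0, 45.4, 48.7 and 48.3 TPM with it, against 63.9, 63.4 and 60.2 TPM in naive cells. Bysl, an assembly factor of the small subunit, had 9.21, 9.26, 8.996, 8.44 and 11.1 TPM without Ikaros and 10.8, 12.7, 12.8, 12.99 and 13.6 TPM with it, against 21.8, 22.5 and 20.5 TPM in naive cells. Both stepped down from naive cells, and of the pair Bysl overlapped between the HEL-exposed groups. Ltv1, another such factor, had 16.1, 14.5, 15.7, 14.1 and 20.2 TPM without Ikaros and 24.7, 20.3, 25.1, 19.3 and 22.1 TPM with it, against 33.0, 36.07 and 33.6 TPM in naive cells. Nolc1, Bysl and Polr1a, the last with 13.7 TPM without Ikaros and 18.7 TPM with it against 29.3 TPM in naive cells on average, stepped down in the same order. The log2 differences from naive cells were -1.17, -1.13 and -1.06 without Ikaros and -0.58, -0.74 and -0.62 with it.

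Npm1, Polr1c and Ncl passed as higher than naive cells in both HEL-exposed groups. Npm1 averaged 220 ± 19.8 TPM in HEL-exposed Ikaros-deleted cells and 185 ± 7.80 TPM in HEL-exposed control cells (SD, n = 5 each), against 95.3 ± 7.95 TPM in naive cells (SD, n = 3). Its log2 differences from naive cells were 1.20 ± 0.09 (limma, adjusted p = 1.26e-06) and 0.95 ± 0.07 (limma, adjusted p = 6.61e-06). Polr1c had 172, 151, 131, 139 and 132 TPM without Ikaros and 136, 140, 143, 155 and 136 TPM with it, against 92.4, 84.2 and 80.0 TPM in naive cells, log2 differences of 0.75 and 0.72. Ncl was higher by 0.34 and 0.32 in the same order. Wdr12 passed as higher in control cells, by 0.25, and lost that call in 6 of 13 alternatives. In deleted cells it did not pass, and whether the groups differ in this respect was tested above, where Wdr12 was lower without Ikaros. Of the other 121 pathway genes 92 were lower and 8 higher without Ikaros, while 48.8% of all 10538 genes were lower and 15.4% higher. With Ikaros 71 were lower and 6 higher, while 38.1% of all 10448 genes were lower and 9.92% higher. Pwp2, Sdad1 and Nol6 fell most without Ikaros, by 1.32, 1.21 and 1.16, and Mdn1, Nol6 and Sdad1 with it, by 0.80, 0.78 and 0.72. Polr1d and Taf1d were higher in both, Utp14a was among the 3 with the largest rise without Ikaros and Pop1 with it. Myc was 0.51 lower without Ikaros (limma, adjusted p = 0.0244) and averaged 49.7 TPM with it and 40.5 TPM in naive cells, which did not pass.

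**Figure D4:**
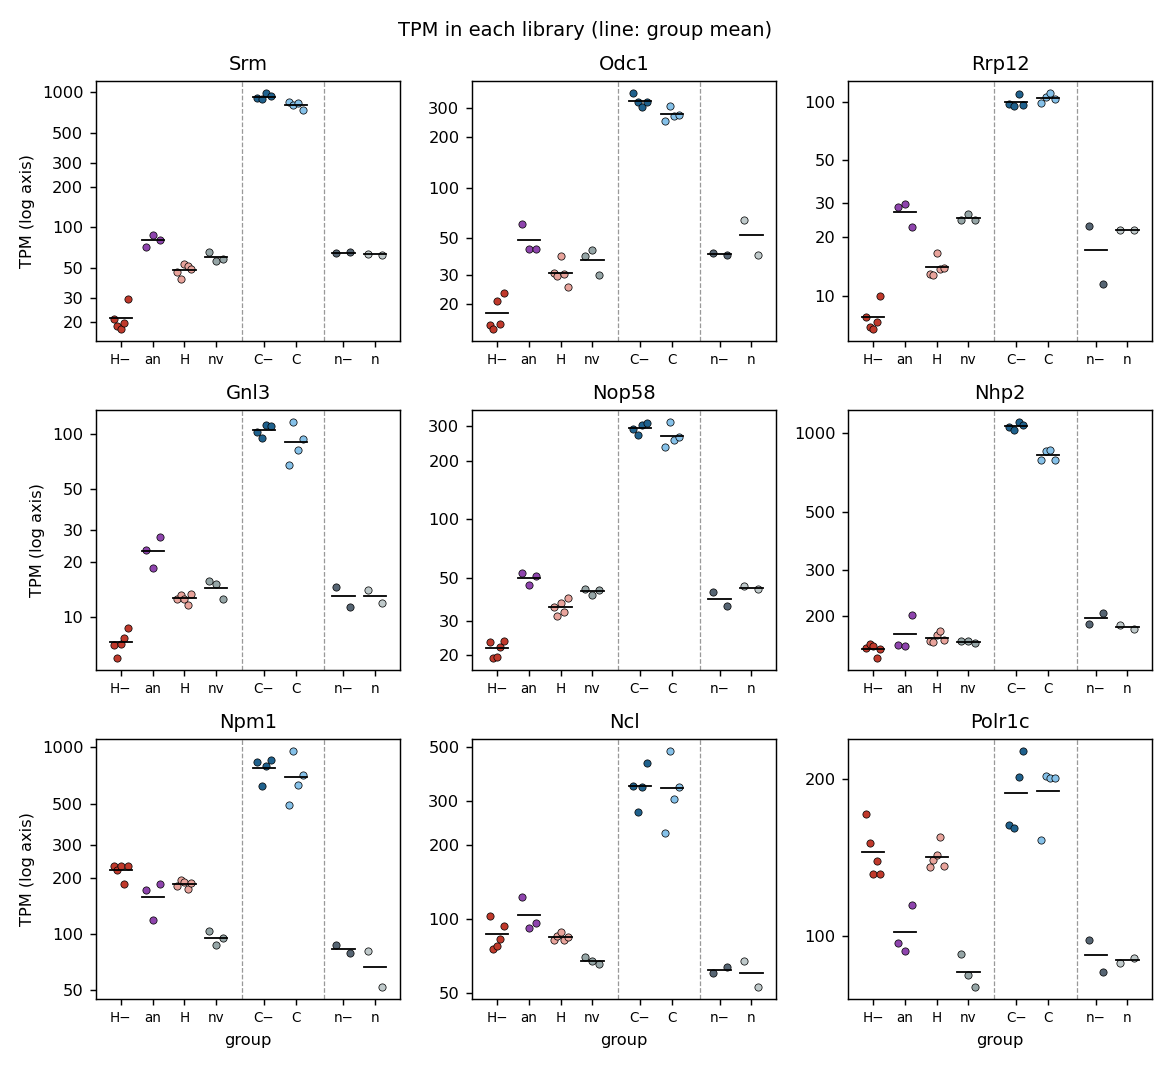
TPM on a log axis in each library (points, line for the group mean) of 9 genes. Groups from left to right are HEL without Ikaros (H−), anergic (an), HEL control (H), naive control (nv), CpG without Ikaros (C−), CpG heterozygous (C), naive without Ikaros (n−) and naive heterozygous (n), with dashed lines between library series. Srm, Odc1, Rrp12, Gnl3 and Nop58 are lowest in the first group, and Npm1 and Polr1c are lower in naive libraries than in HEL-exposed ones.

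Anergic cells and cells with 1 day of HEL, both exposed to the antigen, differed widely in these genes. Against HEL-exposed control cells 33 members were higher and 1 lower in anergic cells, while among all 10491 genes 36.8% were higher and 5.39% lower. The anergic libraries were all male by the Y-linked transcript Ddx3y, while the HEL-exposed controls held 3 female and 2 male libraries. Cre was carried by 1 anergic library and by no HEL-exposed control. The median difference was 0.55, against 0.23 over all genes. After median-ratio scaling 23 members were higher, while 11.4% of all genes were, and with male libraries alone 22 were higher and 0 lower, while 7.58% of all 10593 genes were higher and 0.991% lower. The plasma cell markers summed to 196 to 219 TPM in anergic and 130 to 152 TPM in HEL-exposed control libraries, and the natural killer and cytotoxic cell markers to 16.4 to 22.8 TPM and 9.81 to 12.6 TPM in the same order, both without overlap. Only 1 of the 6 natural killer cell markers was at 1 TPM or more on average in each group. Their part in the result was not tested. Tsr1, a small subunit factor, had 26.3, 20.1 and 21.7 TPM in anergic libraries, against 10.4, 11.7, 12.5, 10.2 and 11.4 TPM in HEL-exposed control libraries, a log2 difference of 0.94 ± 0.11 (limma, adjusted p = 0.000335). Utp20, another, had 17.2, 14.0 and 12.6 TPM, against 7.39, 7.13, 8.60, 6.64 and 7.06 TPM (0.90 ± 0.12, limma, adjusted p = 0.000575). Neither gene overlapped between groups. Rrp12 had 28.5, 29.6 and 22.7 TPM and Polr1a 34.1, 35.7 and 30.3 TPM in anergic libraries, with HEL-exposed control values as above. Rrp12, Polr1a, Rrs1 and Gnl3 were higher by 0.90, 0.80, 0.80 and 0.79, and Srm by 0.71 with 80.1 ± 8.40 TPM in anergic libraries (SD, n = 3) and 48.4 ± 4.95 TPM in HEL-exposed control libraries (SD, n = 5). Polr1c was the 1 lower member, with 97.1, 93.6 and 115 TPM in anergic libraries, against 136, 140, 143, 155 and 136 TPM in HEL-exposed control libraries (-0.48 ± 0.09, limma, adjusted p = 0.00277). Of the other 121 genes 82 were higher and 1 lower, with Mdn1, Nol6 and Sdad1 up by 1.37, 0.87 and 0.87 and Polr1d down by 0.31. Myc was higher by 0.74 ± 0.13 (limma, adjusted p = 0.00230).

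Across the 4 groups of library series 57, the mean TPM increased from HEL-exposed Ikaros-deleted cells through HEL-exposed control and naive cells to anergic cells for 32 of the 42 members. The deleted group was the lowest of the 4 for 37 members, and the anergic group the highest for 39. Over all 8 groups the deleted HEL-exposed group had the lowest mean for 34 members. These orders were not counted over all genes, so they are not shown to be particular to the members. The median log2 difference of all genes was -0.08 for Ikaros loss with HEL and -0.16 for HEL-exposed control against naive cells. For anergic against naive cells it was 0.07.

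CpG-stimulated cells stood far above all other groups. For 40 of the 42 members every CpG-stimulated library was above every other library of the study, and for 42 the highest group mean was in a CpG-stimulated group. Neither count was made over all genes. The stimulus, the culture and the library series cannot be told apart here, so no test was made. In Ikaros-deleted cells 42 members were at least 2-fold higher with CpG than in naive cells of the same genotype, on the log2(TPM + 1) scale, while 33.4% of all 10808 genes were. In heterozygous cells 42 were, while 27.7% of all 10673 genes were. The members' median log2 difference was 2.32 in deleted cells and 2.10 in heterozygous cells. It was 1.76 and 1.67 after median-ratio scaling. With that scaling 37 members were past 2-fold in each genotype, while 18.9% of all genes were in deleted cells and 17.1% in heterozygous cells. The median of all genes was 0.56 and 0.43 as deposited and 0.05 and 0.03 after scaling. The 8 B cell markers summed to 1993 to 2776 TPM in CpG-stimulated Ikaros-deleted libraries, against 14878 to 15952 TPM in naive Ikaros-deleted libraries, and to 2628 to 3618 TPM in CpG-stimulated heterozygous libraries, against 15906 to 16290.3 TPM in naive heterozygous libraries. The natural killer and cytotoxic cell markers summed to 1.56 to 2.03 TPM, against 25.8 to 40.3 TPM, without Ikaros and to 2.91 to 5.84 TPM, against 27.2 to 43.2 TPM, in heterozygous cells, CpG-stimulated libraries first. Of these 6 markers 1 was at 1 TPM or more on average with CpG and 3 in naive cells, in either genotype. The 18 cell cycle genes summed to 4925 to 5380 TPM, against 246 to 292 TPM, without Ikaros and to 3304 to 4792 TPM, against 336 to 444 TPM, in heterozygous cells in the same order. Their part in the result was not tested.

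Srm had the largest difference in both genotypes. It averaged 934 TPM in CpG-stimulated Ikaros-deleted cells, against 65.0 TPM in naive Ikaros-deleted cells, a ratio of 14.4. In heterozygous cells it averaged 809 TPM with CpG, against 63.3 TPM in naive cells, a ratio of 12.8. Npm1 was 9.33 and 10.5 times and Odc1 8.29 and 5.32 times its naive mean, deleted cells first. Polr1c had the smallest difference, 188 TPM against 91.9 TPM in deleted cells and 189.5 TPM against 90.0 TPM in heterozygous cells. The summed level of 18 cell cycle genes was 4925 to 5380 TPM in CpG-stimulated Ikaros-deleted cells, against 246 to 292 TPM in naive deleted cells, and 3304 to 4792 TPM in CpG-stimulated heterozygous cells, against 336 to 444 TPM in naive heterozygous cells. Its part in the members' levels was not tested. Between the 2 naive library series, cells of the same genotype, Cd23-cre Ikzf1(fl/+), differed by a median of -0.10 over the members (series 36 minus the 1 such library of series 57), with Tcof1 at -1.03 and Odc1 at 0.73 as the extremes. Against that library of series 57, 41 members were at least 2-fold higher in CpG-stimulated heterozygous cells, while 20.4% of all 11215 genes were.

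Within a group, members differed in level by more than an order of magnitude, on the TPM scale, which is per length. Wdr12 had the lowest mean in all 8 groups, from 3.70 TPM in naive Ikaros-deleted cells to 32.2 TPM in CpG-stimulated Ikaros-deleted cells. The highest was Npm1 in both HEL-exposed groups, Mybbp1a at 182 TPM in anergic cells, Tcof1 at 178 TPM in their naive controls, and Nhp2 in the CpG-stimulated and the second naive groups. The median member stood at 21.7 TPM in HEL-exposed Ikaros-deleted cells, 46.3 TPM in anergic cells, 33.3 TPM in HEL-exposed control cells and 39.2 TPM in their naive controls. It stood at 157 TPM in CpG-stimulated Ikaros-deleted cells and 158 TPM in CpG-stimulated heterozygous cells.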

How the data were processed

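RNA was prepared with a column kit and polyadenylated RNA was selected on beads, per the labels' protocols. The authors deposited 1 TPM value per gene and library. TopHat 1.4.1, Bowtie, featureCounts 1.5.0 and SAMtools 1.4, with the mm9 build, are named in the submitters' processing notes. Annotation and strandedness are not given in the sources used here. Chromatin samples of the series were not used here. TPM steps gave whole reads recovered within 0.01 for 18843 of 18843 genes above 0. The labels do not state that libraries of a group come from separate animals, so the spread behind each p-value may be technical. No pair of the 40 replicate pairs agreed within sampling noise (chi-square per degree of freedom 6.63 to 54.6).

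Each comparison was fitted over all genes on log2(TPM + 1) by limma 3.58.1 (R 4.3.3), with a mean-variance trend, two-sided, Benjamini-Hochberg adjusted, and called under 0.05. A gene was tested if it reached 1 TPM in at least the smaller group's number of libraries, or in 4 for differences between effects. Fold changes on this scale understate those of low genes. Fits were tested on simulated data. Values after ± are standard errors beside log2 differences and SDs beside TPM. Alternatives were median-ratio scaling, a pseudocount of 0.1, no filter, voom on recovered reads, terms for sex or for the run of library numbers, and leaving out libraries. The term for sex, single runs, male libraries alone and libraries without Cre were chosen after seeing the data. The members and lists were chosen with earlier results of these data known. Values per library are given for up to 6 called members with the largest rise and 6 with the largest fall per comparison, or the 4 most abundant where under 3 were called, and per role for the smallest adjusted p. Promoter sequences are from RefSeq (GRCm38.p6), a build other than that of the counts.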

Additional observations from a re-analysis of the deposited data

Results flagged for a closer look

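The effect of Ikaros loss differed between CpG and HEL for 21 members by limma's test of the difference itself (log2, CpG minus HEL). These were Srm (1.37), Odc1 (1.04), Gnl3 (0.96), Rrs1 (0.85), Nop58 (0.82), Gar1 (0.81), Rrp9 (0.80), Nolc1 (0.77), Rrp12 (0.72), Nop2 (0.70), Wdr43 (0.68), Nop10 (0.59), Utp18 (0.55), Ltv1 (0.54), Nhp2 (0.51), Mybbp1a (0.49), Bysl (0.48), Nop14 (0.47), Bop1 (0.45), Ebna1bp2 (0.42) and Noc4l (0.36). Of these calls 19 held in all 22 alternatives, and Ebna1bp2 and Noc4l lost theirs in 15 and 11.

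In 8 of 172 groups of values 1 library lay far from the rest by Dixon's criterion, and chance gives about 1 in 20 such groups. Of these, 3 were in HEL-exposed Ikaros-deleted library 5, which was high for Srm (29.7 TPM), Utp15 (14.4 TPM) and Rrp1b (5.80 TPM). Npm1 was low in Ikaros-deleted library 4 (186 TPM), and Rrp12 was high in HEL-exposed control library 3 (16.6 TPM). With CpG, Tsr1 was low in Ikaros-deleted library 2 (50.8 TPM), Rrp12 was high in Ikaros-deleted library 3 (110 TPM), and Polr1c was low in heterozygous library 1 (153 TPM).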

How the results depend on the processing

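No paired analysis was possible because the labels number no replicates. Of 5418 values of single members under an alternative, 212 lost a call, 62 gained one and 2 reversed: Pes1, near 0 in HEL-exposed control against naive cells, was higher by 0.16 after median-ratio scaling and by 0.16 with voom, and passed. In that comparison scaling gave 8 higher and 18 lower members and voom 8 and 17. Among all 10448 genes, 2057 were higher and 2147 lower with scaling, and 2021 and 2190 with voom. Without Ikaros 5 members were higher with either, while among all 10538 genes 2938 were higher with scaling and 2912 with voom. Anergic against naive cells had 2 higher members after scaling, 3 with no filter, 3 with voom and 0 without Cre, and 0 to 9 with 1 library left out. Over all genes, 408 of 10519 were higher after scaling and 484 of 10519 with voom. With no filter 368 of 16834 genes were higher, and without Cre 362 of 10613. With 1 library left out, 199 to 711 genes were higher. Against HEL-exposed control cells 2 members were lower in anergic cells with scaling or voom, 0 with male libraries, and 1 to 2 with 1 library left out (2 without anergic library 3). Among all 10491 genes 1302 were lower with scaling and 1320 with voom, and 105 of 10593 were with male libraries. With 1 library left out, 378 to 663 genes were lower. For CpG the higher members numbered 2 with a term for the run, 0 in the first run, 11 in the second, and 1 to 2 with 1 library left out. Over all genes 12.3% were higher with the term, 2.07% in the first run and 10.9% in the second. With 1 library left out, 587 to 1145 genes were higher. For CpG minus naive the higher members numbered 0 to 2 with 1 library left out, 2 (Polr1a and Rrp12) without naive Ikaros-deleted library 1 and 1 without naive heterozygous library 2. Over all genes, 60 to 379 were higher with 1 library left out. They numbered 379 of 10557 without naive Ikaros-deleted library 1 and 157 of 10561 without naive heterozygous library 2. Leaving out a library kept the count of members lower with HEL at 29 to 34, while 2020 to 2538 of all genes were lower. CACGTG before the start site alone was in 2 of 35 members (5.71%). The causes of these changes were not tested. Depth of 12126702 reads or more left every member measured.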
